A study of Mus musculus with 12 samples.

Results

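The cyclin-dependent kinase inhibitors of the Cip/Kip family (Cdkn1a, Cdkn1b and Cdkn1c) and of the Ink4 family (Cdkn2a, Cdkn2b, Cdkn2c and Cdkn2d), the tumor suppressor p53 (Trp53) and the retinoblastoma genes Rb1 and Rbl2 were followed in mouse testes at 4 ages. The members were the 10 genes with these symbols, out of 31513 genes and loci formed from the transcript table, and each member's reads were summed over its transcripts whose structure matched a known transcript of the gene, was contained in it, shared a splice junction with it or overlapped its exons on the same strand. They came to 23 transcripts of the 71967 in the table, 6 of them without a RefSeq identifier, and 3 of the genes had a single transcript. The rule used names and not measured values, but the members were proposed with earlier results of these data known.

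Testis RNA was sequenced from 12 male C57BL/6 mice, an inbred laboratory strain, which carried no introduced allele and received no treatment. The 4 groups were mice of 3 months (3M), 6 months (6M), 12 months (12M) and 18 months (18M), with 3 mice and 3 libraries in each. It is not known whether the mice of an age came from the same litter, and the whole testis was used, with all its germ and somatic cells. The estimated reads assigned to transcripts numbered 50924104 to 71803379 per library, and the Pearson correlation of log2(CPM + 1) between libraries of the same age lay between 0.989 and 0.991 across genes, where CPM is the usual count of a gene relative to the scaled size of its library. No pair of libraries held identical values.

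Inhibitors of the Cip/Kip family bind complexes of cyclins with several cyclin-dependent kinases, whereas those of the Ink4 family bind Cdk4 and Cdk6. Both keep the retinoblastoma proteins, also called pocket proteins, in the state that holds E2F factors back and thereby restrains entry into S phase. p53 acts upstream of this brake through its target Cdkn1a, which encodes p21. The Cdkn2a locus encodes p16Ink4a as well as Arf, which protects p53 from its ubiquitin ligase Mdm2. These genes are best known for cell cycle arrest, differentiation and cellular senescence, and p16Ink4a is a widely used marker of senescent cells in aging tissues. In the testis, p18Ink4c (Cdkn2c) and p19Ink4d (Cdkn2d) are known for their role in male germ cells.

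Several members have more than 1 start or splice form, and the values of the forms differed within a gene, so the sequences that tell them apart are given first. In Cdkn2a, on the minus strand of mouse chromosome 4 (mm10), the Arf transcript NM_009877 begins with an exon at chr4:89294334-89294619. The p16Ink4a transcript NM_001040654 begins with an exon at chr4:89281986-89282192, 12427 bases downstream. Both then join the same second exon in different reading frames. The 30 coding bases across this junction, taken from the GENCODE vM21 transcripts of GRCm38, have the last 15 bases of the specific first exon in capitals and the shared exon in lower case.
Cdkn2a Arf, NM_009877: GGAATCCTGGACCAGgtgatgatgatgggc
Cdkn2a p16Ink4a, NM_001040654: CGTACCCCGATTCAGgtgatgatgatgggc

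In Trp53, on the plus strand of chromosome 11 at chr11:69580359-69591873, both transcripts have 11 exons and differ in the last splice site. The final exon of NM_001127233 starts 96 bases earlier than that of NM_011640, at chr11:69591254-69591873 rather than chr11:69591350-69591873. The last 15 coding bases of the shared exon are in lower case below and the first 15 of the final exon in capitals.
Trp53 NM_011640: cagggctcactccagCTACCTGAAGACCAA
Trp53 NM_001127233: cagggctcactccagCCTCCAGCCTAGAGC

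Cdkn2a, Cdkn2c and Cdkn1a each have 2 annotated starts with a promoter window in RefSeq (GRCm38.p6), and the 150 bases before each start are shown because the levels from the starts differed in all 3 genes. Capitals mark GC boxes (GGGCGG on either strand) and E2F-type motifs (TTTCCCGC, TTTGGCGC, TTTCGCGC or TTTGCCGC on either strand). They also mark both half-sites of a match to the letter pattern of a p53 response element. The windows lie on chromosome 4 minus strand at chr4:89294620-89294769 and chr4:89282193-89282342 (Cdkn2a), on the same strand at chr4:109666757-109666906 and chr4:109665373-109665522 (Cdkn2c), and on chromosome 17 plus strand at chr17:29093619-29093768 and chr17:29090829-29090978 (Cdkn1a).
Cdkn2a Arf start: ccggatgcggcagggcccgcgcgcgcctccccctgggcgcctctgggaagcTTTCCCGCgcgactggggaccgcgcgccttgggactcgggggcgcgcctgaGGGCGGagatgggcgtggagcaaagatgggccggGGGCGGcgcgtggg
Cdkn2a p16Ink4a start: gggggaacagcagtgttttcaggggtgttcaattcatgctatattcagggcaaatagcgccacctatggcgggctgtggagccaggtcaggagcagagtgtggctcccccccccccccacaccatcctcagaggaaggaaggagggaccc
Cdkn2c NM_001301368 start: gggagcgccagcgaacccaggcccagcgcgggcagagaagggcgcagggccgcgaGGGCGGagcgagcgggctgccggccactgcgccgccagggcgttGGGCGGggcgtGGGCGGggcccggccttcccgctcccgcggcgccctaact
Cdkn2c NM_007671 start: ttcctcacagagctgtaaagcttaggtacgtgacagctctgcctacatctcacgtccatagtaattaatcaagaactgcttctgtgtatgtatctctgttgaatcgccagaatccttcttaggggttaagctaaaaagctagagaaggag
Cdkn1a NM_007669 start: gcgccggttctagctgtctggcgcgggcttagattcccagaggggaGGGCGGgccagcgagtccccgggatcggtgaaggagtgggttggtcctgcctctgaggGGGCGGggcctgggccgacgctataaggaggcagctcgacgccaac
Cdkn1a NM_001111099 start: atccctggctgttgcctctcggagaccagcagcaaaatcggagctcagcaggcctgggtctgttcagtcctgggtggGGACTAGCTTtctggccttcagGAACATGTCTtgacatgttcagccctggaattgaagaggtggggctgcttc

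In each of these 3 genes, the start whose transcript had the higher level also had the higher share of G and C in the 250 bases before it. The share was 78.4% before the Arf start and 60.0% before the p16Ink4a start, 77.2% and 42.8% before the upstream and downstream Cdkn2c starts, and 64.8% and 54.0% before the downstream and upstream Cdkn1a starts, where the median of 32851 windows was 52.4%. RefSeq windows were matched for 8 of the 10 members, 11 windows in all. Within these 250 bases, a GC box was found before the starts of Cdkn1b and Cdkn2d as well, and 32.7% of all windows hold 1. The E2F-type motif before the Arf start was the only match among the 11 windows, and 1.86% of all windows hold 1. The p53 response element, searched as 2 half-sites of 10 bases that are up to 13 bases apart, was matched before the upstream Cdkn1a start alone among the members and in 0.0639% of all windows. Before the Cdkn2b start stood the cyclic AMP response element TGACGTCA, present in 1.55% of all windows, and CCAAT, present in 33.8%, was found before the starts of Cdkn1b, Cdkn2d and Trp53. These matches describe letters and not binding.

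All 10 members were detected in every library, at levels that differed widely on the FPKM scale, which corrects fragments for transcript length and for the mapped fragments of the library and so allows genes to be compared. Cdkn2c had the highest mean, 52.8 FPKM ± 3.03 (SD, n = 12), and exceeded 93.2% of all genes. Cdkn2d followed with 21.6 ± 1.501 and Rbl2 with 21.3 ± 1.89. Lower levels were found for Rb1 (6.46 ± 0.458), Trp53 (6.31 ± 0.634) and Cdkn1c (5.65 ± 0.757). The remaining members, Cdkn1a (3.95 ± 0.350), Cdkn2b (3.88 ± 0.487), Cdkn2a (3.28 ± 0.368) and Cdkn1b (2.29 ± 0.330), closed the order.

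The order held beyond the spread between libraries at 2 steps only. The lowest library of Cdkn2c was above the highest of Cdkn2d, and the lowest of Rbl2 was above the highest of Rb1. Every other pair of neighbors overlapped in range. Cdkn2d was above Rbl2 in 7 of 12 libraries, Rb1 above Trp53 in 7 and Cdkn1a above Cdkn2b in 6, so these neighbors were not separated, although Cdkn1c was above Cdkn1a in all 12 libraries despite overlapping ranges. Cdkn2c stood first and Cdkn1b last at each of the 4 ages.

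**Figure D1:**
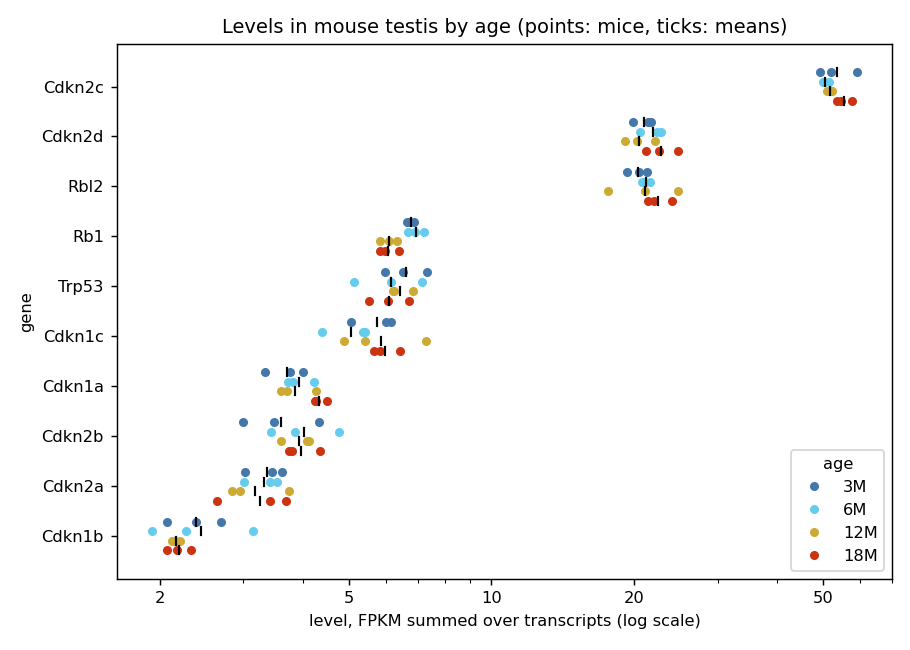
Level of each member (FPKM summed over its transcripts, log axis) in each of the 12 testes, with the ages in separate rows and a tick at the mean of 3 mice. Cdkn2c lies at 49.2 to 59.1 FPKM, apart from Cdkn2d and Rbl2, and the 4 ages overlap in most genes.

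The main question of the design was whether the level of a gene changes with age. No member passed the threshold. In edgeR's quasi-likelihood test of a slope on age over the 12 libraries, 0 of 10 reached 0.05 after adjustment, where 0.171% of the 25204 genes tested did. At an unadjusted p-value of 0.05 or less there were 2 members, Rb1 and Cdkn1a, against 15.4% of all genes, a share near that background. DESeq2 also called 0, with the same number at the unadjusted threshold. The median slope of the members was 0.0046 log2 units per month and that of all genes 0.00017, and 6 of 10 slopes were above 0, against 50.6% over all genes. All 10 members passed the filter on low counts. Since whole testes were measured, fewer cells of a type and less RNA per cell cannot be told apart.

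The intervals show which changes the data could still hold. Over the 15 months from 3M to 18M, the 95% intervals of the fitted change reached at most 32.3% upward, in Cdkn1c, and 27.1% downward, in Cdkn1b. In the abundant Cdkn2c the interval ran from -5.37% to 14.3% and in Rbl2 from -4.06% to 18.7%. A doubling of the summed reads of any member over this span lay outside its interval. Single transcripts could be less certain. For the p16Ink4a transcript, the log2 change between 18M and 3M had an interval from -1.39 to 1.43, which holds a doubling.

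**Figure D2:**
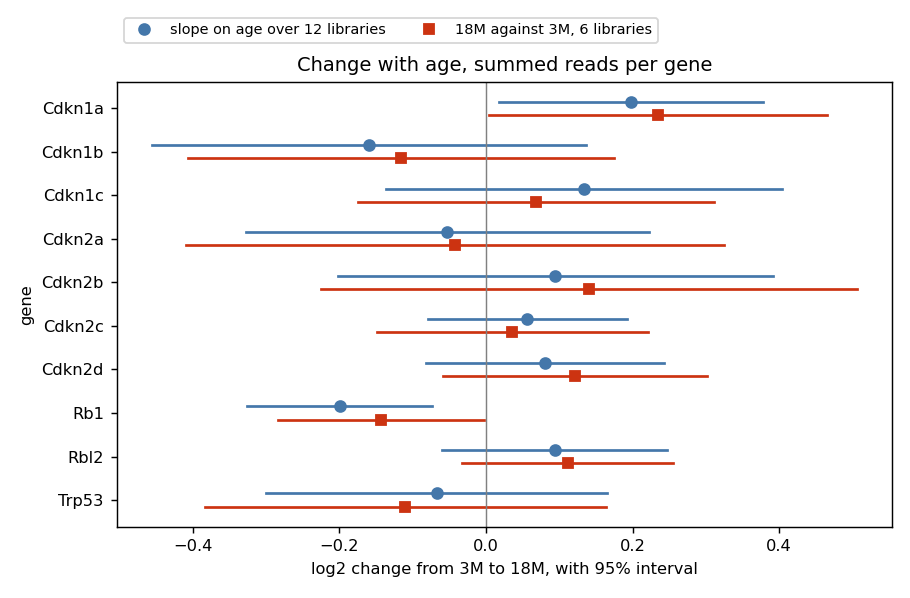
Log2 change from 3M to 18M for each member with its 95% interval, from the slope over 12 libraries (circles, the slope times 15 months) and from the 6 libraries of 3M and 18M alone (squares). The intervals of Cdkn1a and Rb1 lie on 1 side of 0, and those of the other 8 members hold 0.

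Among the Cip/Kip inhibitors, Cdkn1a encodes p21, the inhibitor that p53 induces. Its level was 3.77, 3.997 and 3.34 FPKM in the 3M mice, 3.81, 3.72 and 4.23 at 6M, 3.71, 3.59 and 4.28 at 12M and 4.26, 4.24 and 4.51 at 18M. The 18M libraries were the most alike, and all 3 lay above all 3M libraries. Between these ages 19.7% of all genes tested did not overlap in CPM. The slope was 0.013 log2 units per month (SE 0.0055), with an adjusted p-value of 0.29 in edgeR. 18M was 1.18-fold of 3M, a log2 change of 0.24 (95% interval 0.0047 to 0.47) with an adjusted p-value of 0.41 in edgeR.

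The starts of Cdkn1a did not contribute alike. NM_007669, from the downstream start at chr17:29093769-29100722, made up 94.9% ± 7.47 of the reads (SD, n = 12), and its slope was 0.0042 (SE 0.0076). NM_001111099, from the start 2790 bases upstream that follows the match to a p53 response element shown above, was listed at 0 in 7 of 12 libraries. It was at 0 in all 3M mice, at 0, 0.302 and 0.534 FPKM at 6M, at 0, 0.135 and 0 at 12M, and at 0.645, 0 and 0.936 at 18M. The 2 highest values were therefore those of 18M mice, while the remaining 18M mouse was at 0. The slope of NM_001111099 had an adjusted p-value of 0.92 in edgeR. Both transcripts share their other 2 exons, so the division of reads between them rests on first exons of 93 and 123 bases. The first exon of NM_007669 overlaps AC167363.2, an annotated gene on the opposite strand, over its whole length, and the libraries carry no strand information.

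Cdkn1b encodes p27, the inhibitor that limits proliferation of Sertoli and other somatic cells. Its only transcript, NM_009875, lay between 1.92 and 3.14 FPKM, and both ends of this range came from 6M mice. Its slope was -0.011 log2 units per month (SE 0.0091), and the means were 2.38 ± 0.313 at 3M and 2.19 ± 0.127 FPKM at 18M (SD, n = 3). Cdkn1c, an imprinted gene that encodes p57, lay between 4.40 and 7.27 FPKM, with 5.73 ± 0.586 at 3M and 5.96 ± 0.406 at 18M, and its slope was 0.0089 (SE 0.0083). The lowest Cdkn1c library was a 6M mouse and the highest a 12M mouse.

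Cdkn1c reads were divided between 4 transcripts of the same locus, chr7:143458339-143461241. NM_009876 held 37.1% ± 9.15 of them, NM_001161624 18.9% ± 4.88, and the assembled transcripts MSTRG.19243.1 and MSTRG.19243.2 held 31.1% ± 7.61 and 12.8% ± 12.1 (SD, n = 12). In 1 6M mouse MSTRG.19243.2 had 50.6% of the reads, although it had at most 0.727 FPKM in any other library against 2.08 in this one. All 4 overlap an antisense gene, Gm44732, by up to 458 bases, and reads of the antisense RNA cannot be told apart from those of Cdkn1c.

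In the Ink4 family, Cdkn2a and Cdkn2b are neighbors on chromosome 4, 11670 bases apart. Cdkn2a lay between 2.63 and 3.74 FPKM, with 3.36 ± 0.303 at 3M and 3.25 ± 0.551 at 18M (SD, n = 3), with the highest library at 12M and the lowest at 18M. Its slope was -0.0035 log2 units per month (SE 0.0085), and 18M was 0.972-fold of 3M (95% interval 0.753 to 1.25). Cdkn2b encodes p15, which is induced by TGF-beta in many cell types. Its only transcript, NM_007670, lay between 2.99 and 4.78 FPKM, and 18M was 1.10-fold of 3M (0.856 to 1.42). The total counts behind these 2 genes were low, 138 to 263 reads for Cdkn2a and 258 to 408 for Cdkn2b.

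The Cdkn2a reads belonged mainly to Arf. NM_009877, the Arf transcript, was at 3.26, 3.31 and 2.45 FPKM at 3M, at 3.02, 2.79 and 2.93 at 6M, at 2.51, 2.33 and 3.14 at 12M and at 3.07, 2.23 and 3.37 at 18M. NM_001040654, the p16Ink4a transcript, was at 0.353, 0.131 and 0.578 FPKM at 3M, at 0.396, 0.749 and 0.0738 at 6M, at 0.332, 0.610 and 0.599 at 12M and at 0.349, 0.400 and 0.326 at 18M. Arf was above p16Ink4a in all 12 libraries, with a median ratio of 7.60 and a range from 3.72 to 39.7.

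Neither transcript passed the test of the slope. p16Ink4a made up 10.2% ± 7.28 of the Cdkn2a reads at 3M and 10.8% ± 3.28 at 18M (SD, n = 3). Its slope was 0.0059 log2 units per month with a 95% interval from -0.091 to 0.10, far wider than that of the gene sum, from -0.022 to 0.015. The slope of Arf was -0.0046 (SE 0.012). The p16Ink4a level rests on few reads and on how the assembler divided those of the 2 shared exons.

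Cdkn2c encodes p18Ink4c. The sum of its transcripts was 52.1, 59.1 and 49.2 FPKM at 3M, 49.99, 51.6 and 50.2 at 6M, 51.1, 52.1 and 52.2 at 12M and 54.7, 53.7 and 57.7 at 18M. The highest and the lowest library were both 3M mice, and 18M was 1.03-fold of 3M (95% interval 0.902 to 1.17). Between 5258 and 8421 reads per library lay behind these values.

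The upstream start of Cdkn2c gave most of these reads. NM_001301368, with 3 exons, lay at 42.0 to 52.8 FPKM and NM_007671, with 2 exons and a start 1384 bases downstream, at 5.70 to 8.89, a median ratio of 6.75. NM_007671 was at 6.24, 6.23 and 7.23 FPKM at 3M, at 5.70, 6.52 and 7.86 at 6M, at 7.12, 6.01 and 6.87 at 12M and at 6.89, 8.89 and 8.82 at 18M. Its 18M and 3M libraries overlapped, and its slope was 0.020 log2 units per month (SE 0.0097), with an unadjusted p-value of 0.065 and an adjusted p-value of 0.74 in edgeR. The share of this transcript in the reads of the gene was 7.16% ± 1.29 at 3M and 8.64% ± 1.27 at 18M (SD, n = 3).

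Cdkn2d, which encodes p19Ink4d, had the single transcript NM_009878 at chr9:21288464-21291209. It was at 21.4, 21.7 and 19.9 FPKM at 3M, at 20.5, 22.8 and 22.3 at 6M, at 20.3, 22.1 and 19.1 at 12M and at 21.2, 22.6 and 24.7 at 18M. The ages overlapped, and 18M was 1.09-fold of 3M (95% interval 0.960 to 1.23).

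**Figure D3:**
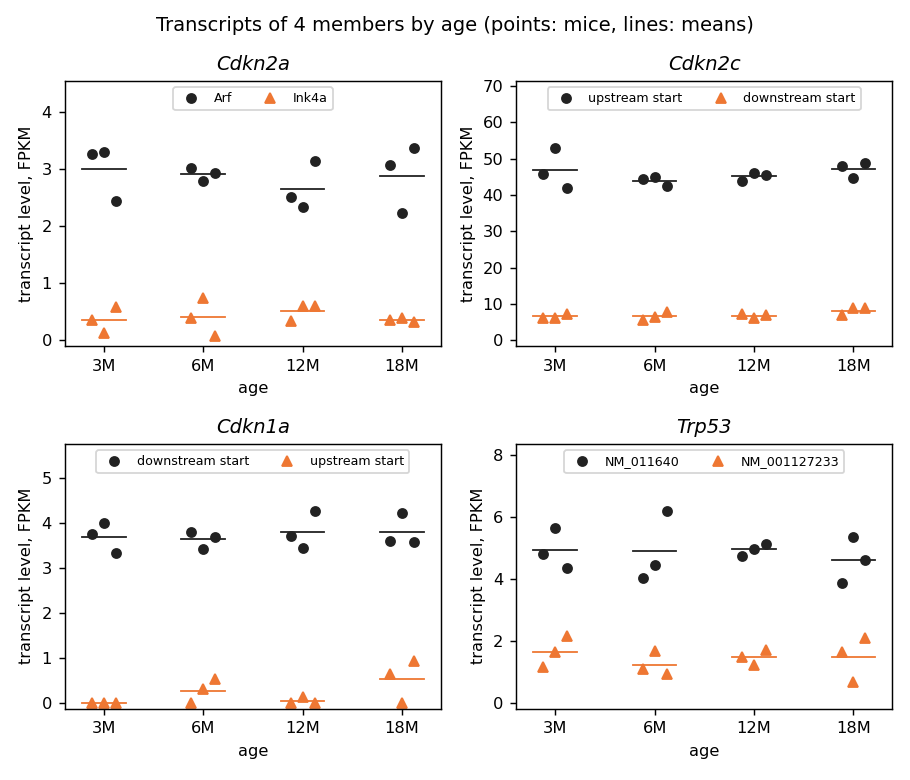
Level of the 2 transcripts of Cdkn2a, Cdkn2c, Cdkn1a and Trp53 (FPKM) by age, with a point for each mouse and a line at the mean of 3 mice. In every library the transcript drawn with circles was above the one drawn with triangles, and the upstream Cdkn1a start is at 0 in 7 libraries.

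Trp53 encodes p53. It was at 5.96, 7.30 and 6.52 FPKM at 3M, at 5.13, 6.13 and 7.14 at 6M, at 6.24, 6.21 and 6.84 at 12M and at 5.52, 6.05 and 6.72 at 18M. The 4 ages overlapped, and the slope was -0.0045 log2 units per month (SE 0.0072). NM_011640, the splice form that ends in the shorter final exon, held 75.8% ± 6.93 of the reads and NM_001127233, with the alternative splice site shown above, 24.2% ± 6.93 (SD, n = 12). The share of NM_001127233 was 26.1% ± 7.38 at 3M and 25.1% ± 11.4 at 18M (SD, n = 3).

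Rb1 encodes the retinoblastoma protein. It was at 6.64, 6.87 and 6.75 FPKM at 3M, at 7.21, 6.68 and 6.92 at 6M, at 6.34, 6.09 and 5.83 at 12M and at 5.95, 6.40 and 5.83 at 18M. All libraries of 12M and 18M lay below all libraries of 3M and 6M. The share of all genes with such a split was not counted. Between 3M and 18M alone, 19.7% of all genes tested did not overlap in CPM. The slope was -0.013 log2 units per month (SE 0.0039), with an unadjusted p-value of 0.0045 and an adjusted p-value of 0.17 in edgeR, and DESeq2 gave an adjusted p-value of 0.071. Among consecutive ages, singled out after the values were seen, the largest difference was that between 6M and 12M. There 12M was 0.875-fold of 6M (95% interval 0.790 to 0.971), with an adjusted p-value of 0.65 in edgeR. Leaving out any 1 library kept the slope between -0.016 and -0.011.

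NM_009029, at chr14:73195502-73325791, held 84.9% ± 8.01 of the Rb1 reads, and the assembled transcript MSTRG.6574.1, which has another last exon, held the rest (SD, n = 12). Taken alone, NM_009029 had a slope of -0.014 (SE 0.0094) and MSTRG.6574.1 one of -0.010 (SE 0.048). Both overlap Rcbtb2, a protein-coding gene on the opposite strand with a mean of 12.8 FPKM, by 105 bases. Markers of Leydig cells, the steroid-producing cells between the tubules, were lower at older ages. Their summed level ranged from 915 to 1089 CPM at 3M and from 579 to 799.8 CPM at 18M. Of the 9 markers 2, Cyp11a1 and Cyp17a1, passed the test of the slope. Slopes were above 0 in 1 of the 9, and 8 fell at an unadjusted p-value of 0.05 or less in edgeR. Markers of round spermatids ranged from 1217 to 1454 CPM at 3M and from 1481 to 1521 CPM at 18M, with 0 of 8 past the threshold. Their slopes were above 0 in 8 of 8, and 5 rose at the unadjusted threshold. Over all genes, 15.4% were at this threshold in either direction. No marker of either list was at 0 reads. In other lists, slopes were above 0 in 0 of 6 peritubular myoid, 1 of 7 endothelial and 3 of 11 macrophage and lymphocyte markers. They were above 0 in 3 of 11 Sertoli cell and 8 of 9 elongating spermatid markers. For spermatogonia and for spermatocytes they were above 0 in 5 of 11 markers each. No marker of these lists passed. The part of cell composition in the values of Rb1 and Cdkn1a was not tested.

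Tests between single ages gave the same count of called members. In edgeR, 0 of 10 members passed an adjusted p-value of 0.05 with a log2 fold change of 1 or more between 18M and 3M (background 0.0528%), between 6M and 3M (0.0611%), between 12M and 6M (0.0325%) or between 18M and 12M (0.0203%). A test of any difference among the 4 ages also called 0 (0.0794%), and DESeq2 called 0 members in each of these 5 tests as well. At an unadjusted p-value of 0.05 or less in edgeR were 2 of 10 members between 18M and 3M, Cdkn1a and Rb1 (12.0% of all genes). Rb1 alone was there between 12M and 6M (7.49%) and among all ages (9.04%). No member was there between 6M and 3M (3.94%) or between 18M and 12M (3.57%). For 10 members, these counts were near the shares of all genes. In DESeq2 only Rb1, between 12M and 6M and among all ages, was at this unadjusted threshold, and none was between 18M and 3M. The 3M and 18M libraries did not overlap in CPM in 2 of 10 members, Cdkn1a and Rb1, against 19.7% of all genes tested.

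Rbl2 encodes p130, the pocket protein known from resting cells, and its transcripts varied far more than their sum. The gene sum was 21.3, 20.4 and 19.3 FPKM at 3M, 21.1, 21.6 and 20.8 at 6M, 21.1, 17.6 and 24.7 at 12M and 21.4, 24.1 and 22.05 at 18M. The 12M mice held both the lowest and the highest value, and 18M was 1.08-fold of 3M (95% interval 0.978 to 1.19).

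Within this sum, the transcript that received the reads differed between libraries of the same age. NM_011250, the RefSeq form at chr8:91070057-91123844, was at 16.9, 1.44 and 16.1 FPKM at 3M, at 18.9, 1.59 and 19.3 at 6M, at 20.4, 0 and 0.948 at 12M and at 21.1, 0.766 and 21.5 at 18M. It led in 7 libraries and received little in the other 5. These 5 were mouse 2 of every age and 12M mouse 3, and the cause was not tested. In those, the reads were assigned to assembled transcripts that the remaining libraries hardly used. MSTRG.20019.1, whose start lies 9701 bases upstream, was at 18.6 FPKM in 1 3M mouse and at 8.23 in 1 12M mouse and at most 0.636 elsewhere. MSTRG.20019.5 was at 19.8 in 1 6M mouse and at 7.74 in the same 12M mouse, and at 0 in the other 10 libraries. MSTRG.20019.6, with its start at chr8:91073791-91123844, was at 23.5 in 1 12M and at 23.3 in 1 18M mouse.

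Each of the 4 ages had at least 1 library led by NM_011250 and 1 led by an assembled form. MSTRG.20019.6 led only in 12M and 18M mice and was at 0 in all 3M and 6M mice. The 6 forms share their last exon but for 2 bases at its end, and the assembler divides reads on shared exons by its model. The last exon also overlaps the opposite-strand gene Aktip, with a mean of 20.8 FPKM, by up to 346 bases.

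**Figure D4:**
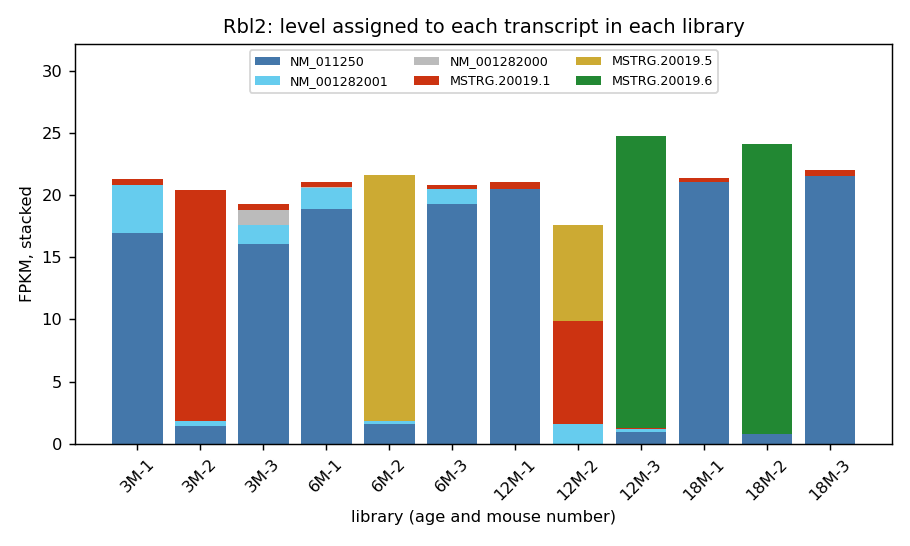
FPKM assigned to each Rbl2 transcript in each of the 12 libraries, stacked so that the height is the gene sum. The height stays between 17.6 and 24.7, while the transcript that fills the bar differs between libraries of the same age.

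NM_001282001, a minor RefSeq form of Rbl2, was the only member transcript at an unadjusted p-value of 0.05 or less in edgeR's tests of single transcripts. It was at 3.84, 0.413 and 1.49998 FPKM at 3M, at 1.68, 0.224 and 1.15 at 6M, at 0, 1.62 and 0.252 at 12M and at 0 in all 18M mice. No fold change is given for it, as the 18M libraries are listed at 0. The test between 18M and 3M gave an adjusted p-value of 0.61 in edgeR and 1.7e-10 in DESeq2, which called it.

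Over all member transcripts, edgeR called 0 of the 20 tested for a slope on age (background 0.0103% of 58289 transcripts) and 0 of the 19 tested between 18M and 3M (0.108%). NM_001282001 was the only 1 at an unadjusted p-value of 0.05 or less in either test (7.15% and 5.40% of all transcripts). Of the 23 with a read, DESeq2 called 1 for the slope, NM_001282000, an Rbl2 form that was above 0 in 2 libraries only. It called 1.58% of the 68030 transcripts with a read. Between 18M and 3M it called 1 of the 22 with a read, NM_001282001, and 1.91% of 66290 transcripts. DESeq2 gave no p-value for the slope of MSTRG.20019.1, MSTRG.20019.5 and MSTRG.20019.6. Between 18M and 3M it gave none for MSTRG.20019.1, NM_001282000 and MSTRG.20019.6. Transcripts without a p-value are included in these totals. At the unadjusted threshold DESeq2 had 3 and 2 member transcripts, against 9.79% and 11.2% of all. A test of whether the transcripts of a gene changed in proportion with age covered the 7 members with at least 2 transcripts and called 0 of them (background 1.92%), and 0 were at an unadjusted p-value of 0.05 or less (10.5%). Neither count was stable for Rbl2, of which this test held 3 of 6 transcripts. The filter on low counts had dropped MSTRG.20019.5 and MSTRG.20019.6, which led in 6M mouse 2, 12M mouse 3 and 18M mouse 2. With all 12 libraries but transcripts kept at 1 CPM or more, 5 of its transcripts were tested. The unadjusted p-value of Rbl2 was then 0.028 and the adjusted p-value 0.26 in edgeR. With each of the 12 libraries left out in turn, its unadjusted p-value was 0.05 or less in 8 of the 12 fits, in which 5 or 6 of its transcripts were tested in place of 3. Rbl2 was called in 1 of these fits, without 12M mouse 2, with an adjusted p-value of 0.0052 in edgeR rather than 0.68, and without 18M mouse 2 the adjusted p-value was 0.67.

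The pathway around the members was read from lists of its other genes. Of 17 tested p53 regulators, 0 passed the test of the slope, and the lowest p-values were those of Atr, a kinase of the DNA damage response (slope -0.014, SE 0.0046, adjusted p = 0.22 in edgeR), and Ppm1d, a phosphatase that dampens p53 (0.0072, SE 0.0025, adjusted p = 0.22). Mdm2, the ubiquitin ligase of p53, named after its values were seen, was at 185 ± 5.30 CPM at 3M and 189 ± 1.60 at 18M (SD, n = 3). The p53 relatives Trp63 and Trp73 had slopes of 0.019 and 0.0019 and did not pass.

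Of 30 p53 target genes, 1 passed, in the falling direction. Ephx1, a microsomal epoxide hydrolase, was at 60.6 ± 2.79 CPM at 3M and 28.2 ± 8.57 at 18M (SD, n = 3), with a slope of -0.081 log2 units per month (SE 0.011) and an adjusted p-value of 0.017 in edgeR. The decline of Ephx1 went along with the lower Leydig cell markers given above, and their part in it was not tested. The slopes of 9 of the 30 targets were above 0, with a median of -0.0079. Cdkn1a, which is itself a target of p53, was not in this list.

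Among 19 partners of the pocket proteins, the E2F and DP factors and subunits of the DREAM complex, 0 passed. The lowest p-values belonged to Lin37, a DREAM subunit (slope 0.015, SE 0.0042, adjusted p = 0.17 in edgeR), and Tfdp2, which pairs with E2F factors (-0.019, SE 0.0064, adjusted p = 0.22). Of 25 E2F target genes 0 passed as well, and Tyms and Pcna, which serve DNA synthesis, had slopes of 0.022 and 0.0066. The median slopes were -0.0035 for the partners and -0.0047 for the targets.

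Of the 10 kinases and cyclins that the inhibitors bind, 0 passed. Ccnd2, cyclin D2, was at 3.22 ± 0.352 CPM at 3M and 2.16 ± 0.339 at 18M (SD, n = 3), with a slope of -0.049 (SE 0.011) and an adjusted p-value of 0.10 in edgeR. Cdk6, the kinase that Ink4 proteins bind, was at 17.2 ± 1.38 and 13.9 ± 0.5001 CPM, with a slope of -0.019 (SE 0.0050) and an adjusted p-value of 0.15. Factors of p21 and p27 turnover gave 0 of 10, with slopes of 0.012 for Cops5 and -0.024 for Fbxo32. Regulators of the Ink4a/Arf locus gave 0 of 15, with slopes of 0.0052 for Bmi1, the Polycomb protein that silences it, and -0.0069 for Dmtf1, an activator of Arf.

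Secreted and other genes associated with senescence were mostly scarce. Of 20 listed, 13 passed the filter on low counts and 0 passed the test of the slope. Il1a, an inflammatory cytokine, was at 0.602 ± 0.126 CPM at 3M and 0.152 ± 0.0885 at 18M (SD, n = 3), with a slope of -0.13 (SE 0.031) and an adjusted p-value of 0.13 in edgeR. Igfbp5, a binding protein of insulin-like growth factors, was at 0.731 ± 0.180 and 1.12 ± 0.387 CPM, with a slope of 0.040 (SE 0.015) and an adjusted p-value of 0.24.

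**Figure D5:**
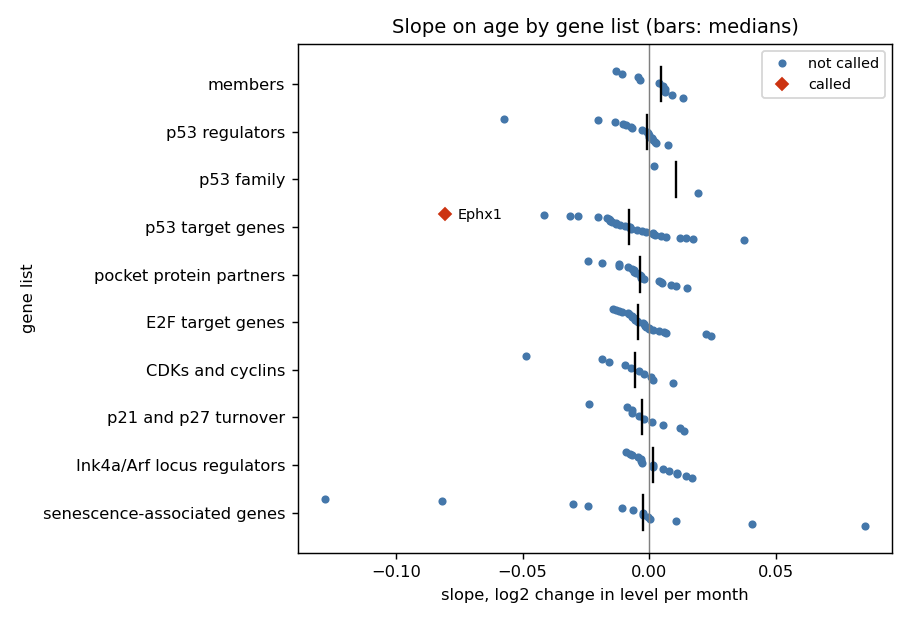
Slope on age (log2 change per month, edgeR) of every tested gene in the members and in each pathway list, with a bar at the list's median. Ephx1 is the only gene marked as called, at -0.081, and the medians of the lists lie between -0.0079 and 0.011.

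The labelled tissue was checked by marker lists. The summed level of elongating spermatid markers ranged from 21853 to 28897 CPM over all libraries and that of epididymis markers from 0.650 to 1.48 CPM, with 2 of 7 epididymis markers at 0 reads.

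The genes whose pattern over the 12 libraries was most like that of a member were taken from 15338 genes with a mean of at least 1 CPM, by Pearson's r of log2(CPM + 1). For Cdkn1a these were Ficd (0.946), 4930470P17Rik (0.902) and Ctdnep1 (0.897), for Cdkn1b they were Pdcl3 (0.935), Golm1 (0.929) and Ywhah (0.917), and for Cdkn1c Dscaml1 (0.932), Zfp420 (0.929) and Herpud1 (0.923). For Cdkn2a they were 1110059G10Rik (0.886), Fn3krp (0.882) and Tmem30c (0.845), for Cdkn2b Sowahd (0.911), Lair1 (0.896) and Bhlhe40 (0.876), for Cdkn2c 2310057M21Rik (0.928), Aspscr1 (0.903) and 2310022A10Rik (0.888), and for Cdkn2d 4933415F23Rik (0.847), Fbxw18 (0.823) and Pcdhgb8 (0.799). For Trp53 they were Necab2 (0.878), Snrnp35 (0.869) and Dysf (0.862), for Rb1 Smarca1, Maoa (0.900 each) and Secisbp2l (0.899), and for Rbl2 1700123O12Rik (0.923), Chchd7 (0.904) and Ccdc90b (0.889). These are the highest of 15338 values over 12 points each, and the libraries share their depth and cell composition, so they are a description only.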

How the data were processed

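Total RNA of 12 testes, freed of ribosomal RNA, went into paired-end libraries made with a kit that does not mark the strand. For the alignment to mm10 the authors used HISAT2 (version not given in the sources used here), and for assembly and quantification StringTie, whose version 1.3.3b stands in the file headers. The deposited table gives whole-number estimated counts for each transcript, beside FPKM as the authors computed it. The exon coordinates were taken from their assemblies, and each member transcript had the same exons in all 12. There were 0 columns without a sample.

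Estimated counts were summed per gene symbol over transcripts of class =, c, j or o, and FPKM likewise. Tests were two-sided quasi-likelihood tests of edgeR 4.0.16 (R 4.3.3), after TMM scaling and filterByExpr, with Benjamini-Hochberg adjustment over all features tested, with all 12 libraries for the slope on age and for any difference, and only the libraries of both ages between single ages. A feature was called at 0.05 after adjustment and, between single ages, if it also changed by at least 1 on the log2 scale. Transcript proportions were tested with diffSpliceDGE of edgeR, and DESeq2 1.42.0 was the alternative test. Standard errors were the log2 change over the root of its F statistic, and the intervals are 95%. Libraries held 50924104 to 71803379 estimated counts. With 3 mice per age, p-values set differences between ages against the spread between these mice. In edgeR this spread is moderated with that of all features tested. For the slope, it also holds departures of the ages from a line. The tests were checked on simulated counts with changes far larger than those fitted for the summed reads of the members. Changes of the members' size were not checked.

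Named were all members, member transcripts with a mean of 0.5 FPKM or more (20 of 23, with others where a test or a start turned on them), from each list the called genes or, where none was called, the 2 with the lowest p-value, and the 3 genes most like each member. The lists, like the members, were chosen with earlier results of these data known. Alternatives were other normalizations, no filter, DESeq2, all 12 libraries in the fit, no fold threshold, all transcript classes summed, the mouse number as a block, and each library left out. Promoter windows came from RefSeq (GRCm38.p6) and junctions from GENCODE vM21.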

Additional observations from a re-analysis of the deposited data

How the results depend on the processing

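The count of members called stayed at 0 in all 6 gene-level comparisons under every alternative, and of the values of single members 307 kept their direction and their side of the threshold while 5 changed sign, all with 1 library left out: the slope of Cdkn2a ranged from -0.0098 to 0.0033, and the log2 change between 18M and 3M from -0.15 to 0.086 in Cdkn2a, -0.011 to 0.12 in Cdkn1c and -0.024 to 0.12 in Cdkn2c. DESeq2 called 1 member transcript in each transcript test, and leaving out single libraries gave 0 to 1 members with changed transcript proportions. The order of levels kept all 10 places with medians over libraries. Summing every class could not change it, as the members had 0 transcripts of other classes.

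Counts over all features moved more, and the causes were not tested. For the slope, any difference, 18M against 3M, 6M against 3M, 12M against 6M and 18M against 12M, DESeq2 called 559, 378, 83, 53, 55 and 28 genes, where edgeR called 43, 20, 13, 15, 8 and 5. For transcripts DESeq2 called 1075 (slope) and 1263 (18M against 3M) rather than 6 and 59. With the mouse number as a replicate block the counts were 22 for the slope, 0 for 18M against 3M, 2 for 6M against 3M, 2 for 12M against 6M, 3 for 18M against 12M, 3 and 0 for transcripts and 110 for proportions rather than 187. With all 12 libraries in the fit they were 21, 4 and 1 genes for 18M against 3M, 6M against 3M and 18M against 12M, and 18 transcripts. Without a filter, 3 and 22 transcripts were called. Proportions gave 396 genes with transcripts at 1 CPM or more and 116 by Simes adjustment. Leaving out 1 library gave 13 (18M mouse 3) to 116 (18M mouse 1) genes for the slope, 15 to 44 for any difference, 15 to 30, 17 to 35, 9 to 22 and 7 to 20 for the pairs of ages, 3 to 8 and 8 to 25 transcripts, and 291 to 345 genes for proportions.

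Deviations from the age means of same-numbered libraries correlated between -0.064 and 0.17 over 18 pairs, with a median of -0.0073. Differently numbered libraries gave -0.17 to 0.11 over 36 pairs, with a median of 0.0015. Of the 12 libraries, 4 correlated best with 1 of their own number. In Rbl2, an assembled form led in mouse 2 of every age. Whether same-numbered libraries were handled together was not tested. Cdkn2a, Cdkn2b and Cdkn1b had the fewest reads per library among the members.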

Other observations

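The members were also compared with each other over the 12 libraries, as a description. The highest Pearson correlations of log2(CPM + 1) were those of Cdkn1a with Rbl2 (0.627) and of Cdkn1b with Cdkn2b (0.626), and the lowest was that of Cdkn1c with Rb1 (-0.690). The libraries share their depth and cell composition in each of these values. Mdm4, a relative of Mdm2 that restrains p53 and was singled out after its values were seen, varied widely between mice of most ages. The mean was 102 CPM ± 44.9 for 3M, 143 ± 12.1 for 6M, 76.1 ± 48.3 for 12M and 70.3 ± 43.9 for 18M (SD, n = 3), and the slope of Mdm4 had an adjusted p-value of 0.41 in edgeR.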
